A study of Mus musculus with 10 samples.

Results

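The genes described here encode the conjugating enzymes of drug and steroid metabolism in mouse liver: UDP-glycosyltransferases (UGT), glutathione S-transferases (GST) and sulfotransferases (SULT). A gene was a member if its symbol began with Ugt1 to Ugt3, with Gst and a class letter, or with Sult1 to Sult6, and if a transcript cluster of the array mapped to that symbol alone. This gave 49 genes, 10 UGT, 18 GST and 21 SULT, of the 22180 genes with such a cluster. The rule reads symbols and clusters, not measured values, but the families were picked with earlier results of these data known. The annotation held 15 further protein-coding symbols of these families that were not analysed here, 14 of them because their clusters carried several symbols. They include Gsta1, Gsta2, Gstm5, Gstz1, Ugt2a1, Ugt2a2 and every Ugt1a gene, so no UGT1 enzyme is described.

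RNA was measured on 10 Affymetrix whole-transcript arrays of livers from fasted male mice. An adeno-associated virus had been given about 2 weeks before, in which the liver promoter TBG drove either FST288, an isoform of the activin antagonist follistatin, or the fluorescent protein GFP as control. The groups were LTKO mice with FST288 (n = 2 arrays), LTKO mice with GFP (n = 2 arrays), FST288-treated wild-type mice kept on high-fat food (HFD FST288, n = 3 arrays) and the same kind of mice given GFP (HFD GFP, n = 3 arrays). LTKO is not spelled out in the labels and in published work stands for a liver knockout of Irs1, Irs2 and Foxo1. The labels do not give the diet or age of the LTKO mice. Genotype and diet therefore cannot be told apart in any comparison of LTKO with HFD livers.

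Glucuronidation, glutathione conjugation and sulfation make foreign compounds, bilirubin, steroids and bile acids water-soluble, so that they can leave the hepatocyte in bile or blood. UGT enzymes transfer glucuronic acid or another sugar from a UDP-sugar, GST enzymes transfer glutathione, and SULT enzymes transfer sulfate from the donor PAPS. In rodent liver several of these genes are expressed at different levels in males and females, and many are controlled by the receptors CAR and PXR and by the oxidative stress factor NRF2.

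Values are deposited RMA values on a log2 scale, where 1 unit is a doubling, and no value is compared between genes. A gene was called where the limma test gave an adjusted p under 0.05 over all 22180 genes. Fst, the gene that the vector carries, was higher with FST288 in LTKO livers (2.72-fold, adjusted p = 0.0307) and in HFD livers (2.11-fold, adjusted p = 0.015). These calls were lost in 7 of 10 LTKO and 4 of 10 HFD fits that each left out 1 array, with adjusted p up to 0.118 and 0.0955. The LTKO call was among those lost without LTKO FST288 replicate 2 (adjusted p = 0.0699). Irs1, Irs2 and Foxo1 were lower in LTKO than in HFD livers with GFP, by 3.40-, 2.31- and 3.21-fold. Without LTKO GFP replicate 1 the Irs2 change was -0.79 (adjusted p = 0.0713), and when the clusters of each gene were averaged the Irs1 and Foxo1 changes were -0.89 and -0.90, both still called. The hepatocyte marker median was 11.61 to 11.83 on the LTKO arrays and 12.11 to 12.22 on the HFD arrays. This median is set by Tat and Cps1, which changed by -0.72 and -0.21 with GFP and by -0.42 and -0.41 with FST288. Alb changed by 0.05 with GFP and 0.01 with FST288, so the markers did not move as 1. On HFD FST288 replicates 2 and 3 the median of 7 measured pancreatic acinar markers was 8.57 and 7.35, against 2.17 to 2.54 on the other 8 arrays. On LTKO FST288 replicate 2 the median of the 4 macrophage markers was 6.79, against 5.24 to 5.86 on the other 9 arrays. Several calls in comparisons that use these arrays were lost without them, as given below. In bulk liver RNA, fewer cells of a type and less RNA per cell cannot be told apart.

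Of the members, 31 had a mean at or above the median of all genes, 3.12, which was the limit for dim genes. These were 9 UGT, 16 GST and 6 SULT genes. The 18 members below it never exceeded 4.32 on any array, and 15 of them were SULT genes. The median within-group SD was 0.153 over the members and 0.158 over all genes.

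**Figure D1:**
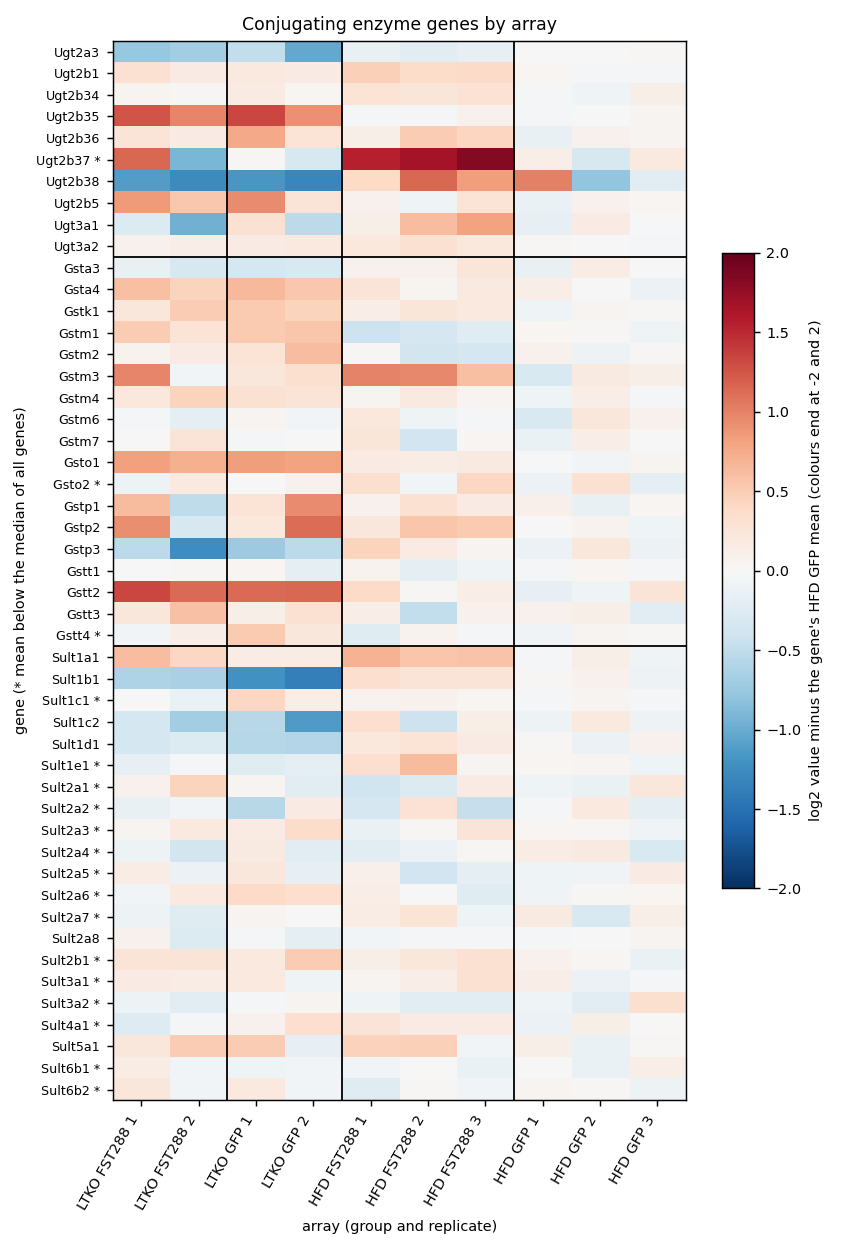
Heat map of the log2 RMA value of each of the 49 members (rows, by family) on each of the 10 arrays (columns, by group), shown in colour as the difference from the gene's HFD GFP mean, with dim genes marked by an asterisk. Sult1b1, Sult1d1 and Ugt2a3 are below that mean on the 4 LTKO arrays, and Ugt2b35, Gstt2 and Gsto1 are above it.

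On chromosome 5, 11 members lie in the order Ugt2b34, Ugt2b1, Ugt2b35, Ugt2b36, Ugt2b5, Ugt2b37, Ugt2a3, Ugt2b38, Sult1b1, Sult1d1 and Sult1e1, by the GRCm38.p6 annotation. This order leaves out genes that are no members, so genes next to each other in it need not be adjacent on the chromosome. Between LTKO and HFD livers with GFP, Ugt2b35, Ugt2b36 and Ugt2b5, consecutive in this order, were called higher. Ugt2a3, Ugt2b38, Sult1b1 and Sult1d1, also consecutive in it, were called lower. The calls of Ugt2b36, Ugt2b5 and Ugt2b38 were lost in 2, 4 and 6 of 10 fits that left out 1 array. With FST288 the same genes were called in the same directions except Ugt2b36, at -0.14, and Ugt2b37 between them was also called lower.

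RefSeq promoter windows, 250 bases before to 50 after a start site in GRCm38.p6, were available for 42 members in 52 windows. They were searched on both strands for 4 motifs. The forkhead motif, GTAAACA, which factors such as Foxo1 bind, was in 4 of 52 windows (7.69%) and in 3.65% of all 32851 windows. Its 4 genes were Ugt2b35, Ugt2b37, Ugt2b38 and Sult1d1, all on chromosome 5. The HNF1 motif, GTTAAT, bound by a hepatocyte factor, was in 10 of 52 windows (19.2%) and in 7.1% of all windows. The core of the antioxidant response element, TGACNNNGC, through which NRF2 acts, was in 2 of 52 windows (3.85%) and in 12.4% of all windows. The STAT5 motif, TTCNNNGAA, was in 2 of 52 windows (3.85%) and in 8.3% of all windows. A match is a description of these letters and does not show binding.

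The windows with the forkhead motif are shown because each of these genes was called in at least 1 comparison of LTKO with HFD livers, and the Sult1a1 window because this gene had the smallest p of the members with FST288 in HFD livers. Genes with other motifs were called there too, such as Ugt2a3 and Gsta3 with the HNF1 motif, and their windows are not shown. Ugt2b35 is on the plus strand at chr5:87000610-87000909. Ugt2b37 (chr5:87254739-87255038), Ugt2b38 (chr5:87424154-87424453), Sult1d1 (chr5:87568957-87569256) and Sult1a1 (chr7:126676369-126676668) are on the minus strand. Each is written 5′ to 3′ on the gene's strand. Capitals mark the forkhead motif in the first 4 and the HNF1 motif in Sult1a1. The forkhead motif begins 231 bases before the start in Ugt2b35, 166 before it in Ugt2b37, 152 before it in Ugt2b38 and at base 33 after it in Sult1d1. The HNF1 motif begins 232 bases before the start in Sult1a1, and the Sult1d1 window also holds it, without overlap with its forkhead motif.
Ugt2b35: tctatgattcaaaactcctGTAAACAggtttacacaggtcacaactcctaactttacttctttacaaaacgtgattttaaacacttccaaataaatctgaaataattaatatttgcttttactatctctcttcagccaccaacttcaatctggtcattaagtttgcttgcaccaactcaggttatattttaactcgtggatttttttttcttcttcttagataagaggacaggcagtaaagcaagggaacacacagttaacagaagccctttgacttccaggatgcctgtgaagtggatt
Ugt2b37: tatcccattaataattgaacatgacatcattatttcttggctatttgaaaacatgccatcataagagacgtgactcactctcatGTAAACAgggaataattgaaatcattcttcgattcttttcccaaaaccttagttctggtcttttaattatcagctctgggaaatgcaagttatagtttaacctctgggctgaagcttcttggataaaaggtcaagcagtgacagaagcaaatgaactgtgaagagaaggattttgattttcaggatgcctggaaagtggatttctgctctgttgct
Ugt2b38: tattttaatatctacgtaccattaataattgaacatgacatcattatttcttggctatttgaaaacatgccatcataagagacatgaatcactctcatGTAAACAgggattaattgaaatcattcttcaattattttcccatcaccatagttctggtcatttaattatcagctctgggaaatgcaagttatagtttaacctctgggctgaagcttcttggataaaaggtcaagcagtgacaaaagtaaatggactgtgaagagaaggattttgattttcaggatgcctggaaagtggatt
Sult1d1: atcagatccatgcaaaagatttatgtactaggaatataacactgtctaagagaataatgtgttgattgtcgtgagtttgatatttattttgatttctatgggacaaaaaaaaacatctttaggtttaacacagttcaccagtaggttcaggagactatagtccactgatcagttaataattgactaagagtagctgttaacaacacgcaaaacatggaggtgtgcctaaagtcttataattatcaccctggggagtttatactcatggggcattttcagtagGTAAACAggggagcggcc
Sult1a1: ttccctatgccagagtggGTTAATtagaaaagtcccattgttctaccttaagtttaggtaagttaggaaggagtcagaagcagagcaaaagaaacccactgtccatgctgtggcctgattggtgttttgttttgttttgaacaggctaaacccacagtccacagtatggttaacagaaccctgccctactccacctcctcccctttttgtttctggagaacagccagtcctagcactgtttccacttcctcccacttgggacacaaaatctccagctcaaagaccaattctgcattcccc

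The windows of Ugt2b37 and Ugt2b38 matched at 270 of 282 aligned bases (95.7%). The Ugt2b35 window matched Ugt2b37 at 67.3% of 208 aligned bases. Array probes may not separate transcripts of such near copies, so values of single Ugt2b genes, and of the closely related Gstm and Gstp genes, are uncertain in that respect. The cluster annotated as Gstp2 stands, in the order of cluster numbers, between Mir3473c and Rcor3 of chromosome 1, while Gstp2 itself is annotated on chromosome 19. Its values are given as those of that cluster.

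The first question was what FST288 did to these genes in HFD livers. Sult1a1, Ugt2b1 and Ugt2b37 were called higher and no member was called lower, so 3 of 49 (6.12%) were called. Of all genes 0.996% were called, and 0.577% were called higher.

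Sult1a1 encodes the main phenol sulfotransferase of liver (transcript cluster 17496354, chromosome 7). Its values were 10.78, 10.63 and 10.65 in HFD FST288 livers, against 10.04, 10.20 and 10.01 in HFD GFP livers. All FST288 livers were above all GFP livers, and the highest was replicate 1, which had no acinar marker signal. The change was 0.60 ± 0.07 (log2, SE), a 1.52-fold rise (adjusted p = 0.00139).

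Ugt2b1 encodes a UGT2B enzyme (cluster 17449322, chromosome 5). Its values were 12.39, 12.27 and 12.30 in HFD FST288 livers, against 11.95, 11.89 and 11.87 in HFD GFP livers. The groups did not overlap, and replicate 1 was again the highest. The change was 0.41 ± 0.05, a 1.33-fold rise (adjusted p = 0.00252).

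Ugt2b37 (cluster 17449355, chromosome 5) was a dim gene, with values of 4.04, 4.14 and 4.32 in HFD FST288 livers, against 2.62, 2.16 and 2.67 in HFD GFP livers. The groups did not overlap, but the GFP values lay below the median of all genes, so the fold is not an exact measure. The change was 1.69 ± 0.37, or 3.22-fold (adjusted p = 0.048), and this call was lost in 8 of 10 fits that each left out 1 array.

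Without the acinar-high replicates 2 and 3, which leaves 1 HFD FST288 array, no member was called. Sult1a1 then changed by 0.70 (adjusted p = 0.0743), Ugt2b1 by 0.48 (adjusted p = 0.103) and Ugt2b37 by 1.56 (adjusted p = 0.729). With the acinar marker median as a covariate, Sult1a1 (0.69, adjusted p = 0.0322) and Ugt2b1 (0.48, adjusted p = 0.0375) were called. That median varies mainly within the HFD FST288 group, so these changes rest largely on replicate 1 and are no separate check.

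**Figure D2:**
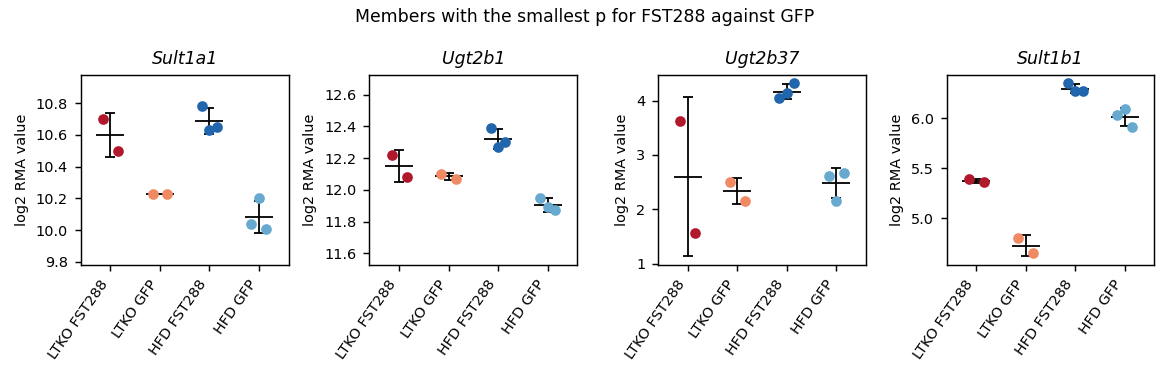
Log2 RMA values of single arrays (points) with the group mean and SD (bars) for the members with the smallest p in the FST288 comparisons. For Sult1a1 and Ugt2b1 the HFD FST288 livers all lie above the HFD GFP livers.

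Outside the calls, 33 of 49 members had a change above 0 in HFD livers. The median change was 0.13 over the members and 0.00 over all genes, and 14 members had an unadjusted p under 0.05, beside 12% of all genes. The median was 0.31 over the UGT genes, 0.15 over the GST genes and 0.04 over the SULT genes. Among the UGT genes 9 of 10 were above 0, the exception being Ugt2a3 at -0.17. Ugt2b34 changed by 0.26 ± 0.06 (adjusted p = 0.079). Gstm3, of the mu class, had values of 6.36, 6.33 and 5.97 in HFD FST288 livers, against 5.06, 5.55 and 5.49 in HFD GFP livers. Its groups did not overlap, and its change of 0.86 ± 0.22 missed the threshold (adjusted p = 0.0927). Gstm1 of the same class went the other way, by -0.32 ± 0.09 (adjusted p = 0.132).

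In LTKO livers FST288 left 0 of 49 members called by limma, where 0.167% of all genes were called. An unadjusted p under 0.05 was found for 6 of 49 members, close to the share of all genes, 9.98%. All 6 were SULT genes, but the family did not move in 1 direction. The dim genes Sult1c1 and Sult4a1 had means of 2.02 and 2.15 in LTKO FST288 livers, against 2.36 and 2.49 in LTKO GFP livers. Sult1b1 encodes a cytosolic sulfotransferase that acts on thyroid hormones and phenols (cluster 17449394, chromosome 5). Its values were 5.39 and 5.36 in LTKO FST288 livers, against 4.80 and 4.65 in LTKO GFP livers. The groups did not overlap, and the change of 0.65 ± 0.12 missed the threshold (adjusted p = 0.0616). For Sult1a1 the values were 10.70 and 10.50 in LTKO FST288 livers, against 10.23 and 10.23 in LTKO GFP livers. The direction was that seen in HFD livers, but the change of 0.37 ± 0.09 was not called (adjusted p = 0.179).

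Without LTKO FST288 replicate 1, Gstp1 alone was called in LTKO livers. Gstp1, the pi-class enzyme that is abundant in male mouse liver, had values of 11.99 and 10.85 in LTKO FST288 livers, against 11.63 and 12.30 in LTKO GFP livers. The low value was that of replicate 2, the array with the high macrophage markers, and the groups overlapped. The Gstp2 cluster had 10.74 and 9.49 in LTKO FST288 livers, against 10.02 and 10.93 in LTKO GFP livers. The part of the macrophage signal in these values was not tested. Within-group SD reached 0.81 for Gstp1 and 0.89 for Gstp2 in LTKO FST288 livers, against 0.11 and 0.18 in HFD FST288 livers. The pi-class genes were singled out after their values were seen.

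Whether FST288 acted differently in the 2 backgrounds was tested as the LTKO effect minus the HFD effect. Of the members 0 of 49 were called by limma, beside 0.216% of all genes, and 10 had an unadjusted p under 0.05, beside 12.6% of all genes. The smallest p was that of Ugt2b1, with a difference of -0.35 ± 0.09 (adjusted p = 0.129). Its values in LTKO livers were 12.22 and 12.08 with FST288, against 12.10 and 12.07 with GFP, so these groups differed by 0.06. Next was Ugt2b36 (cluster 17449332, chromosome 5), with a difference of -0.66 ± 0.20 (adjusted p = 0.205). It had 9.46 and 9.37 in LTKO FST288 livers, against 9.97 and 9.48 in LTKO GFP livers, and 9.32, 9.71 and 9.64 in HFD FST288 livers, against 9.06, 9.29 and 9.27 in HFD GFP livers. Its FST288 livers were thus below the GFP livers in LTKO mice and above them in HFD mice, without the difference being called. Without LTKO FST288 replicate 1 the difference was called for 4 members, Gstp1, Gstp2, Ugt2b1 and Ugt2b37.

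**Figure D3:**
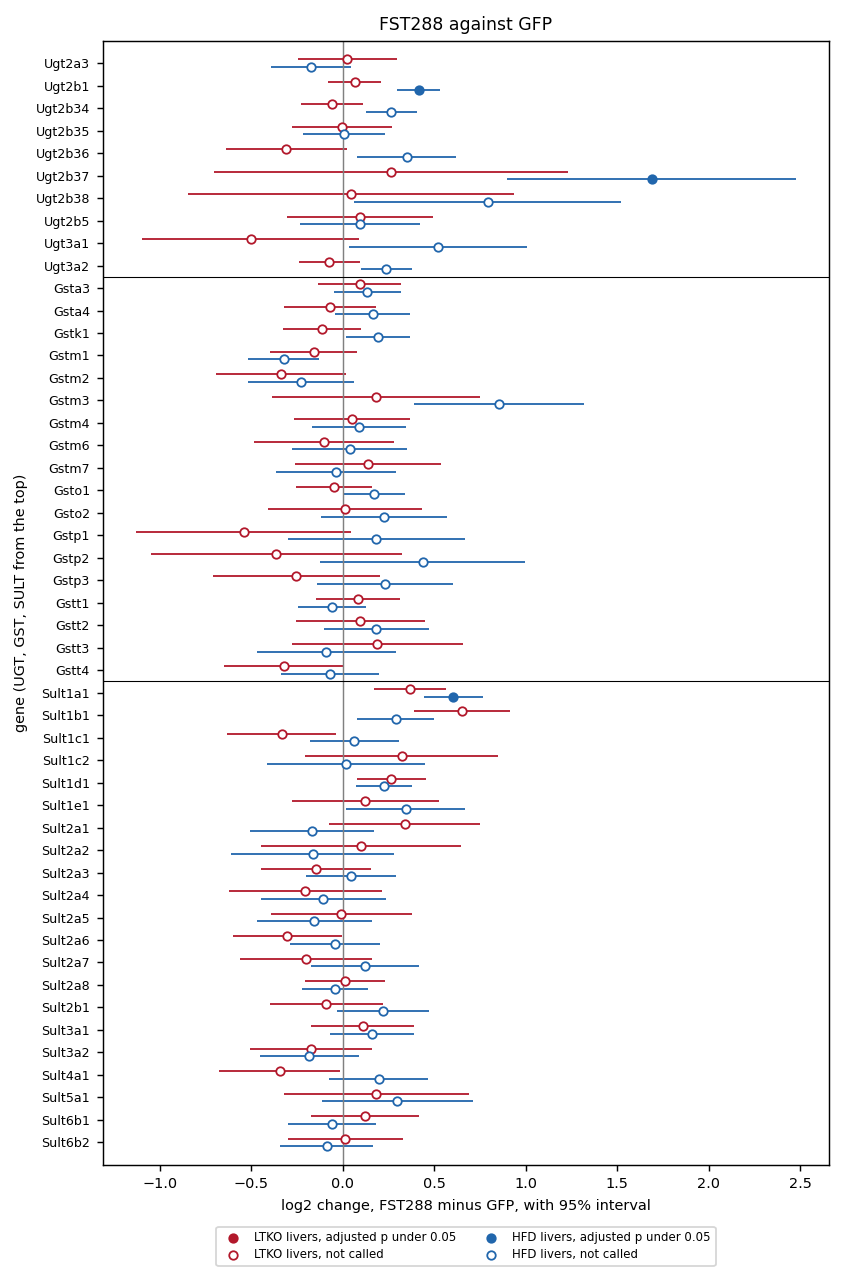
Log2 change with FST288 over GFP for each of the 49 members (points) with its 95% interval (lines), in LTKO livers and in HFD livers, where filled points passed an adjusted p under 0.05. The only filled points are Sult1a1, Ugt2b1 and Ugt2b37 in HFD livers.

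LTKO livers were then set against HFD livers, once among the GFP livers and once among the FST288 livers. These comparisons share no arrays with each other, but each shares arrays with both FST288 comparisons. With GFP, 14 of 49 members (28.6%) were called, where 13.1% of all genes were called, 6.69% higher and 6.4% lower. Among all genes at or above the median level the share was 23.8%, and among the 31 members at that level it was 45.2% (14 genes). The called members were 8 higher and 6 lower, which comprised 5 GST genes up and 1 down, 3 UGT genes up and 2 down, and 3 SULT genes down. With FST288, 14 of 49 (28.6%) were again called, where 10.3% of all genes were called, 5.05% higher and 5.29% lower. At or above the median level, 13 of 31 members (41.9%) were called, beside 19.4% of all genes at that level. Of the 14 called members, 6 were higher and 8 lower. The comparisons had 11 called members in common, 78.6% of each list, all in the same direction. Both set the same backgrounds against each other and use 1 estimate of spread from all 10 arrays. The overlap over all genes was not computed, so this share is not read as particular to the members.

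The difference between a gene's LTKO changes with FST288 and with GFP is the same contrast as the difference between the FST288 effects, in which no member was called. Without the acinar-high arrays, which leaves 1 HFD FST288 array, 7 members were called with FST288: Gstm1, Gsto1, Gstp3, Gstt2, Sult1b1, Sult1d1 and Ugt2b35. The other 7 were then Gsta3 (-0.33, adjusted p = 0.303), Gsta4 (0.26, adjusted p = 0.512), Ugt2a3 (-0.58, adjusted p = 0.102), Ugt2b37 (-1.45, adjusted p = 0.289), Ugt2b38 (-1.59, adjusted p = 0.149), Ugt2b5 (0.62, adjusted p = 0.229) and Ugt3a1 (-0.74, adjusted p = 0.33). Without LTKO FST288 replicate 2, Gsta3 (-0.28, adjusted p = 0.202), Gsta4 (0.43, adjusted p = 0.0786), Ugt2b37 and Ugt3a1 were not called. Of the 6 hepatocyte markers, Serpina1a, Tat and Cps1 were called lower in LTKO livers with FST288 and Apoa1, Tat and Cps1 with GFP. Alb and Ttr were called with neither vector, and 2 of the 4 macrophage markers were called higher with FST288. The part of these cell type signals in the members' changes was not tested.

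Among the UGT genes, Ugt2b35 had the largest rise (cluster 17438621, chromosome 5). Its values were 9.57 and 9.29 in LTKO FST288 livers, against 8.27, 8.28 and 8.40 in HFD FST288 livers. They were 9.64 and 9.23 in LTKO GFP livers, against 8.28, 8.30 and 8.36 in HFD GFP livers. All 4 LTKO livers were above all 6 HFD livers. The change was 1.11 ± 0.12 with FST288 (2.16-fold, adjusted p = 2.38e-05) and 1.12 ± 0.12 with GFP (2.18-fold, adjusted p = 2.13e-05), while FST288 itself moved the gene by 0.00 in both backgrounds.

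Ugt2b5, near it on chromosome 5, was 0.60 ± 0.17 higher in LTKO livers with either vector (adjusted p = 0.0372 with FST288 and 0.0313 with GFP). That call was lost in 5 and 4 of the 10 fits that left out 1 array, and without LTKO GFP replicate 1 the GFP change was 0.26. Ugt2b36 was called with GFP only (0.52 ± 0.14, adjusted p = 0.026), and without LTKO GFP replicate 1 its change was 0.27 (adjusted p = 0.31). With FST288 the Ugt2b36 change was -0.14 (adjusted p = 0.661).

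Ugt2a3, whose human counterpart glucuronidates bile acids, fell in LTKO livers. It had 9.22 and 9.29 in LTKO FST288 livers, against 9.83, 9.77 and 9.82 in HFD FST288 livers. With GFP it had 9.49 and 8.96 in LTKO livers, against a range of 9.98 to 10 in the 3 HFD livers. No LTKO liver reached the lowest HFD liver, and the change was -0.56 ± 0.11 with FST288 (adjusted p = 0.00559) and -0.76 ± 0.11 with GFP (adjusted p = 0.000549). Without LTKO GFP replicate 2 the GFP change was -0.50 (adjusted p = 0.00195), and the FST288 call was lost without the acinar-high arrays and with the acinar covariate (adjusted p = 0.059).

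Ugt2b38 lay near background in LTKO livers, at 2.25 and 2.10 with FST288 and 2.20 and 2.06 with GFP. In HFD livers it had 3.77, 4.52 and 4.21 with FST288 and a wide 4.38, 2.58 and 3.16 with GFP. The change was called with both vectors, -1.99 ± 0.38 with FST288 (adjusted p = 0.00323) and -1.24 ± 0.38 with GFP (adjusted p = 0.0451), though at such levels its size is not an exact measure. The GFP call was lost in 6 of 10 fits that left out 1 array, and without HFD GFP replicate 1 the change was -0.74. Ugt2b37 fell with FST288 (-1.58 ± 0.41, adjusted p = 0.0244) on values of 3.63 and 1.56 in LTKO livers. Without the lower of them, LTKO FST288 replicate 2, the change was -0.54 (adjusted p = 0.243).

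Ugt3a1, a UGT3 enzyme that uses UDP-N-acetylglucosamine, was lower in LTKO livers with FST288 (7.09 and 6.40, against 7.48, 7.98 and 8.17 in HFD livers). The change of -1.13 ± 0.25 (adjusted p = 0.00947) was -0.79 (adjusted p = 0.139) without LTKO FST288 replicate 2 and -0.74 without the acinar-high arrays, not called in either. With GFP its change was -0.11. Ugt2b1, Ugt2b34 and Ugt3a2 were called in neither comparison, with changes between -0.22 and 0.18.

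The GST genes had a median change of 0.33 with GFP, against 0.01 over all genes, and of 0.14 with FST288, against 0.00 over all genes. Gstt2, a theta-class enzyme (cluster 17241954, chromosome 10), had 6.44 and 6.23 in LTKO FST288 livers, against 5.48, 5.12 and 5.23 in HFD FST288 livers. It had 6.23 and 6.25 in LTKO GFP livers, against 4.93, 5.02 and 5.35 in HFD GFP livers. The lowest LTKO liver was well above the highest HFD liver. The rise was 1.06 ± 0.15 with FST288 (2.08-fold, adjusted p = 0.000334) and 1.14 ± 0.15 with GFP (2.21-fold, adjusted p = 0.00016). Gstt1 of the same class was not called, at 0.08 with FST288 and -0.07 with GFP.

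Gsto1, the omega-class enzyme that reduces dehydroascorbate (cluster 17360216, chromosome 19), had a within-group SD of 0.0468, against a median of 0.153 over the members. It had 7.83 and 7.72 in LTKO FST288 livers, against 7.18, 7.16 and 7.19 in HFD FST288 livers. It had 7.84 and 7.81 in LTKO GFP livers, against 7.0, 6.96 and 7.07 in HFD GFP livers. The rise was 0.60 ± 0.09 with FST288 (1.51-fold, adjusted p = 0.000468) and 0.81 ± 0.09 with GFP (1.76-fold, adjusted p = 3.22e-05).

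Gstm1, a mu-class enzyme (cluster 17409154, chromosome 3), had 7.77 and 7.54 in LTKO FST288 livers, against 6.85, 6.94 and 7.03 in HFD FST288 livers. It had 7.80 and 7.83 in LTKO GFP livers, against 7.31, 7.29 and 7.19 in HFD GFP livers. The groups did not overlap with either vector, and the HFD FST288 livers were the lowest. The rise was 0.71 ± 0.10 with FST288 (adjusted p = 0.00034) and 0.55 ± 0.10 with GFP (adjusted p = 0.00237). The other 5 mu-class members were not called, with changes from -0.39 to 0.34 with FST288 and from -0.01 to 0.45 with GFP.

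Gsta4, which conjugates lipid aldehydes formed in oxidative damage, was higher in LTKO livers by 0.36 ± 0.11 with FST288 (adjusted p = 0.0493) and by 0.59 ± 0.11 with GFP (adjusted p = 0.00201). The FST288 call was lost in 9 of 10 fits that left out 1 array. Gsta3, which in mice detoxifies the epoxide of aflatoxin, was lower, with changes of -0.37 ± 0.10 with FST288 (adjusted p = 0.0234) and -0.33 ± 0.10 with GFP (adjusted p = 0.0362). The Gsta3 call was lost in 2 of 10 fits that left out 1 array with FST288 and in 4 of 10 with GFP. Gstk1, the kappa-class enzyme of mitochondria and peroxisomes, was called with GFP (0.48 ± 0.09, adjusted p = 0.00275) and had a change of 0.18 with FST288.

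Of the pi class, Gstp3 was lower in LTKO livers with FST288, where it had 6.19 and 5.47 against 7.16, 6.87 and 6.77 in HFD livers. The change of -1.10 ± 0.19 (adjusted p = 0.00178) was called in all 10 fits that left out 1 array. With GFP, Gstp1 (0.60 ± 0.25, adjusted p = 0.145), the Gstp2 cluster (0.67 ± 0.29, adjusted p = 0.167) and Gstp3 (-0.62) were not called.

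**Figure D4:**
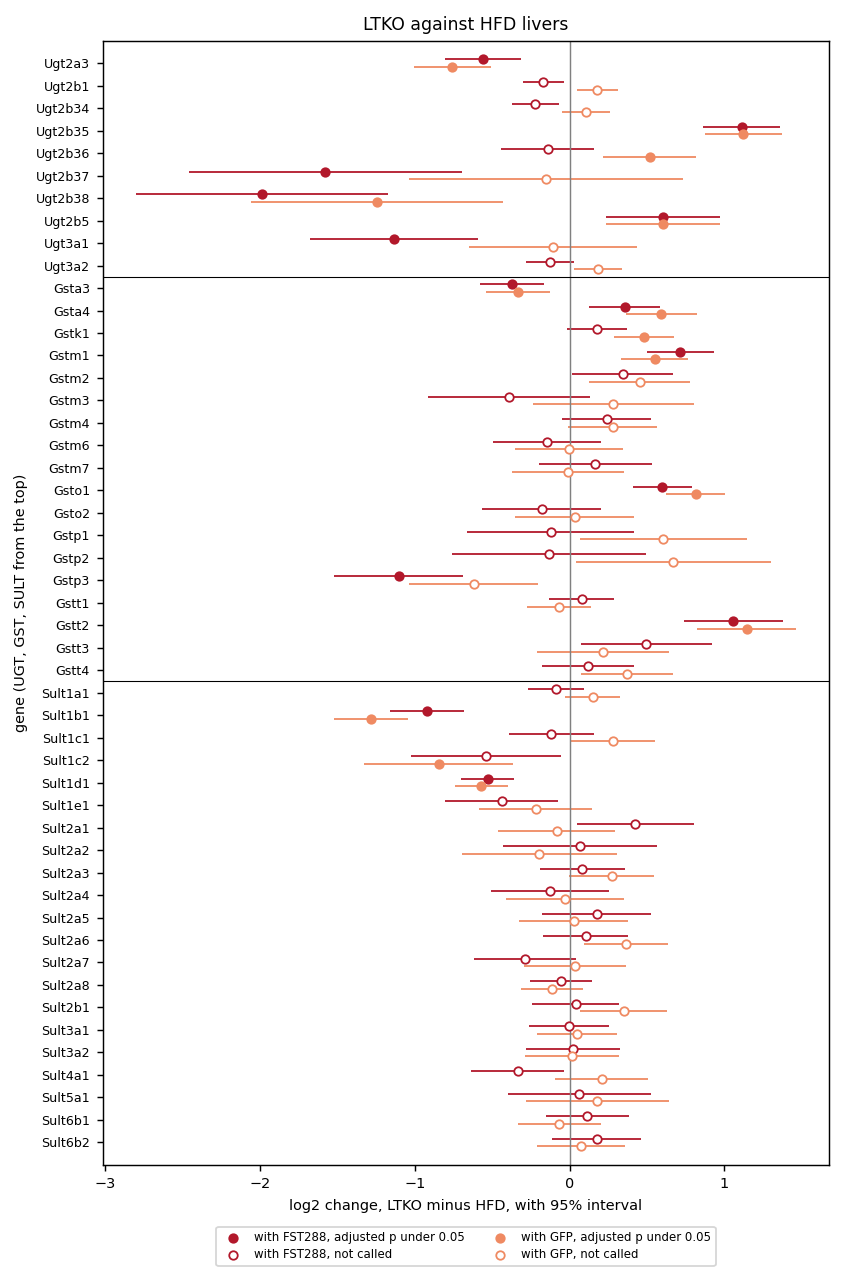
Log2 change of LTKO over HFD livers for each of the 49 members (points) with its 95% interval (lines), among FST288 livers and among GFP livers, where filled points passed an adjusted p under 0.05. Ugt2b35 and Gstt2 lie furthest to the right, and Ugt2b38 and Sult1b1 are among the lowest with both vectors.

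Among the sulfotransferases, no gene was called higher in LTKO livers with either vector, and 15 of the 21 were dim genes. Changes that were not called went both ways, such as 0.36 for Sult2a6 and -0.22 for Sult1e1 with GFP. Sult1b1 had 5.39 and 5.36 in LTKO FST288 livers, against 6.35, 6.27 and 6.27 in HFD FST288 livers. It had 4.80 and 4.65 in LTKO GFP livers, against 6.03, 6.09 and 5.91 in HFD GFP livers. LTKO GFP livers were the lowest, LTKO FST288 livers came next, and all HFD livers were above both. The change was -0.92 ± 0.11 with FST288 (1.89-fold lower, adjusted p = 8.49e-05) and -1.28 ± 0.11 with GFP (2.43-fold lower, adjusted p = 4.43e-06).

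Sult1d1, which sulfates catecholamines and eicosanoids in rodents (cluster 17449406, chromosome 5), had 9.01 and 9.09 in LTKO FST288 livers, against 9.57, 9.64 and 9.53 in HFD FST288 livers. It had 8.79 and 8.78 in LTKO GFP livers, against 9.38, 9.25 and 9.45 in HFD GFP livers. The order of the groups was that of Sult1b1. The change was -0.53 ± 0.08 with FST288 (adjusted p = 0.000567) and -0.57 ± 0.08 with GFP (adjusted p = 0.000307). Sult1c2 was lower with GFP (-0.85 ± 0.22, adjusted p = 0.0227), and without LTKO GFP replicate 2 its change was -0.56 (adjusted p = 0.239).

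Sult1a1, which FST288 raised in HFD livers, did not differ detectably between LTKO and HFD livers, at -0.09 (95% interval -0.27 to 0.09) with FST288 and 0.15 (-0.03 to 0.33) with GFP. Sult2a8, a hydroxysteroid sulfotransferase of mouse liver that acts on bile acids, had 11.01 and 10.64 in LTKO FST288 livers and 10.89 and 10.72 in LTKO GFP livers. It had 10.86, 10.89 and 10.88 in HFD FST288 livers and 10.89, 10.91 and 10.97 in HFD GFP livers. It was not called in any comparison.

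Sult2a1 to Sult2a7, hydroxysteroid sulfotransferases of which several are female-predominant in mouse liver, stayed between 1.20 and 2.40 on all 10 arrays. Sult3a1 and Sult3a2 stayed between 1.16 and 1.88, and none of these 9 genes was called. Of 10 measured other female-predominant liver genes, 5 were called higher in LTKO livers with FST288 and 4 with GFP, among them Acot3 (log2 changes of 3.35 with FST288 and 2.76 with GFP) and Cyp2a4 (2.02 with FST288 and 0.86 with GFP). Of 10 male-predominant genes, 8 were called lower with FST288, and 4 were called lower and 1 higher with GFP. Their median level was 8.31 and 7.0 in LTKO FST288 livers and 7.90 and 7.95 in LTKO GFP livers, against 9.12 to 9.24 in all HFD livers, and its lowest value was on the array with the low pi-class values.

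Genes that make the cofactors of the families were also read. In the counts of the lists below, genes rose or fell only where they were called. With FST288, 10.3% of all genes were called, and 19.4% of those at or above the median level. With GFP these shares were 13.1% and 23.8%. The list counts, also those of the sex-predominant genes above, were not tested against these shares. Of 6 measured genes of PAPS supply, 4 were called lower in LTKO livers with FST288 and 3 with GFP, and none was called higher. Papss2, the main PAPS synthase of liver, had 9.38 and 9.09 in LTKO FST288 livers, against 10.38, 10.17 and 10.24 in HFD FST288 livers. It had 9.01 and 9.29 in LTKO GFP livers, against 10.39, 10.39 and 10.43 in HFD GFP livers. No LTKO liver reached an HFD liver, and the change was -1.03 (adjusted p = 1.66e-05) with FST288 and -1.26 (adjusted p = 2.81e-06) with GFP. Papss1, the other PAPS synthase, changed by -0.98 (adjusted p = 0.000695) with FST288 and -0.83 (adjusted p = 0.00229) with GFP. The call of Slc26a1, a sulfate carrier, with GFP was lost in 5 of 10 fits that left out 1 array, and that of Bpnt1, which degrades the spent donor, with FST288 in 4 of 10. Bpnt1 changed by -0.34 (adjusted p = 0.352) without the acinar-high arrays and by -0.42 (adjusted p = 0.0947) without LTKO FST288 replicate 2.

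Of 8 measured genes of glutathione synthesis and recycling, 4 rose in LTKO livers with FST288, and with GFP 4 rose and 1 fell. Gclc, the catalytic subunit of the rate-limiting enzyme of glutathione synthesis, had 9.80 and 9.71 in LTKO FST288 livers, against 8.57, 8.57 and 8.69 in HFD FST288 livers. It had 10.45 and 10.45 in LTKO GFP livers, against 8.86, 9.0 and 8.95 in HFD GFP livers. The rise was 1.14 (adjusted p = 4.79e-07) with FST288 and 1.51 (adjusted p = 3.36e-08) with GFP. Its modifier subunit Gclm rose by 0.49 with each vector, and glutathione reductase, Gsr, rose by 0.66 with FST288 and 0.64 with GFP. The FST288 call of Gsr was lost without the acinar-high arrays (0.59, adjusted p = 0.0591).

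Gclc fell with FST288, with a change of -0.70 ± 0.09 in LTKO livers (adjusted p = 0.00534) and of -0.33 ± 0.07 in HFD livers (adjusted p = 0.0438). The LTKO call was lost with only the arrays of the 2 groups compared and without the intensity trend. Gclm fell with FST288 in HFD livers, with a change of -0.36 (adjusted p = 0.0237). Both HFD calls were lost in 6 of 10 fits that left out 1 array, and without the acinar-high arrays Gclc changed by -0.37 (adjusted p = 0.551) and Gclm by -0.35 (adjusted p = 0.639).

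Of 5 measured genes of UDP-glucuronate supply, 1 rose and 1 fell with each vector. Ugdh, which makes UDP-glucuronate, rose by 0.39 with FST288 (adjusted p = 0.0155) and 0.86 with GFP (adjusted p = 3.51e-05). The FST288 call of Ugdh was lost without the acinar-high arrays (0.42, adjusted p = 0.16) and without LTKO FST288 replicate 2 (0.35, adjusted p = 0.108). Ugp2, which makes the UDP-glucose it starts from, fell by 1.73 with FST288 (adjusted p = 4.31e-08) and by 1.18 with GFP (adjusted p = 1.44e-06).

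**Figure D5:**
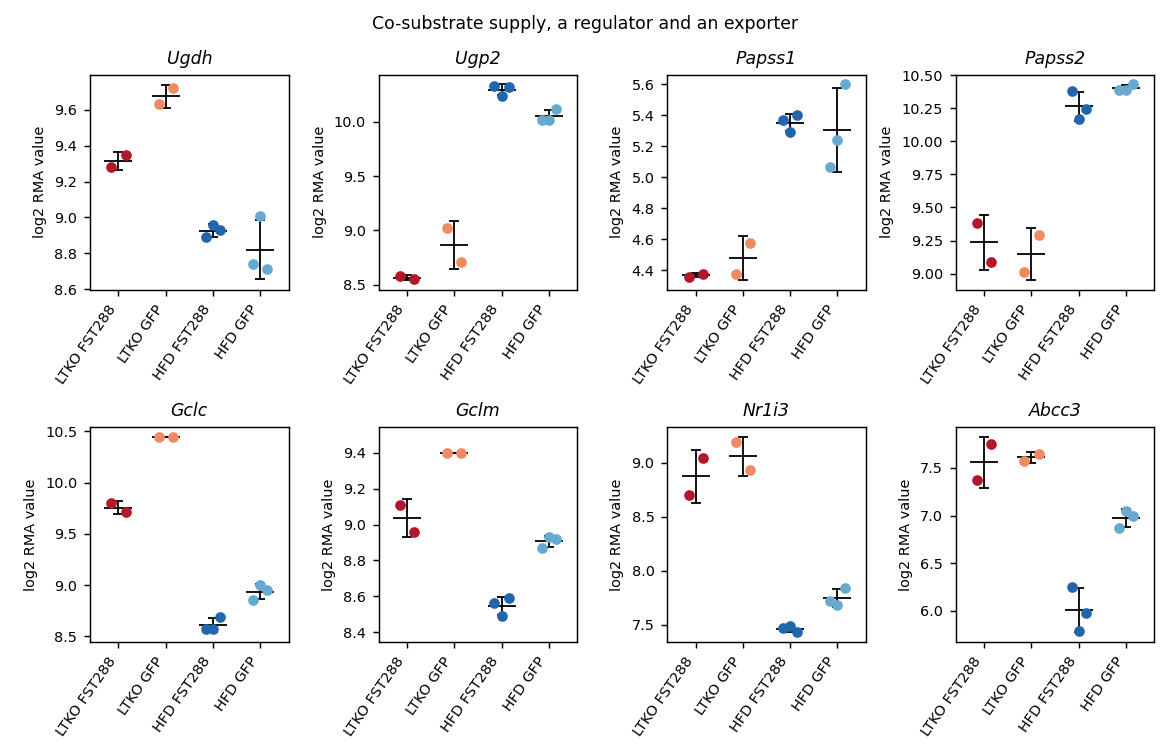
Log2 RMA values of single arrays (points) with the group mean and SD (bars) for cofactor genes, the regulator Nr1i3 and the exporter Abcc3. Papss1, Papss2 and Ugp2 are lower on all 4 LTKO arrays than on any HFD array, and Gclc and Nr1i3 are higher.

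Of 16 measured enzymes of other conjugation reactions, 4 were called lower and none higher in LTKO livers with FST288. With GFP, 4 were called lower and 2 higher. Hnmt, the methyltransferase that inactivates histamine, fell by 2.47 with FST288 (adjusted p = 7.13e-08) and by 3.07 with GFP (adjusted p = 7.96e-09). Tpmt, the thiopurine methyltransferase, fell by 1.32 with FST288 and by 1.41 with GFP. FST288 raised Hnmt in LTKO livers by 0.87 (adjusted p = 0.042), a call lost in 9 of 10 fits that left out 1 array, LTKO FST288 replicate 2 among them (0.95, adjusted p = 0.0642).

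Of 15 measured exporters and uptake carriers, 8 fell and 2 rose in LTKO livers with FST288, and 7 fell and 2 rose with GFP. Abcc3, which exports glucuronides into blood, had 7.37 and 7.75 in LTKO FST288 livers, against 6.25, 5.79 and 5.98 in HFD FST288 livers. It had 7.57 and 7.65 in LTKO GFP livers, against 6.87, 7.05 and 7.0 in HFD GFP livers. It rose by 1.55 with FST288 (adjusted p = 8.21e-06) and 0.64 with GFP (adjusted p = 0.00846). It fell with FST288 in HFD livers, with a change of -0.96 ± 0.13 (adjusted p = 0.00254), and of -0.72 (adjusted p = 0.321) when the acinar-high arrays were left out. Among 6 measured cleaving enzymes, Ces1d and Ces2a rose and Ces2e fell with both vectors. These genes encode carboxylesterases, which split esters and not glucuronides or sulfates. Gusb, Arsa and Arsb of that list, whose enzymes cleave glucuronides or sulfates, were called with neither vector. Their changes were 0.02, 0.59 and -0.23 with FST288, and -0.04, 0.29 and -0.20 with GFP. The FST288 call of Ces1d was lost without the acinar-high arrays (0.68) and without LTKO FST288 replicate 2 (0.55).

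Of 18 measured regulators, 2 rose and 2 fell in LTKO livers with FST288, and 5 rose and 3 fell with GFP. Of all genes at or above the median level, 19.4% were called with FST288 and 23.8% with GFP. Those that fell include Foxo1, a gene that the name LTKO in published work gives as knocked out. The others that fell were Ghr with both vectors and Arnt with GFP. Nr1i3, which encodes CAR, rose by 1.41 with FST288 (adjusted p = 2.06e-06) and 1.31 with GFP (adjusted p = 4.47e-06). Of 10 NRF2 reporter genes, 7 were called higher with FST288 and 8 with GFP, and none was called lower. Their list holds Gclc and Gclm, and among the others Nqo1 rose by 1.34 with each vector. Of 8 measured reporter genes of AhR, CAR and PXR, 3 rose with each vector, among them Cyp3a11 (2.52 with FST288 and 1.88 with GFP), and none was called lower. Cyp1a1, Cyp1b1, Tiparp, Cyp2b10 and Cyp2c55 were not called. Cyp2b10, a CAR reporter, changed by -0.02 with FST288 and -0.31 with GFP. The median of the list was 3.74 to 4.01 on the LTKO arrays and 4.05 to 4.72 on the HFD arrays. Cyp3a11 fell with FST288 in HFD livers, with a change of -0.84 ± 0.08 (adjusted p = 0.000243), and of -0.81 (adjusted p = 0.0743) without the acinar-high arrays.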

How the data were processed

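Liver RNA of male mice was hybridised to 10 Affymetrix whole-transcript arrays. The authors deposited log2 values made with RMA in Affymetrix Expression Console, per the submitters' processing notes. The version and genome build are not given in the sources used here, and log2 is read from RMA and the range, 0.64 to 13.21. RMA sets all arrays to 1 distribution, so a shift shared by most genes is not visible. Clusters were named through the supplied platform table; of 41345 clusters, 23521 had 1 symbol and were used, with the brightest cluster per gene by mean.

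All 22180 genes and 10 arrays entered a linear model of group means in limma 3.58.1 (lmFit, eBayes with intensity trend) in R 4.3.3, with 6 residual and 7.155 prior degrees of freedom. Two-sided p-values were corrected by the Benjamini-Hochberg method over all genes, separately in each of 5 contrasts. Errors of changes are SE and errors of group means are SD. An array gives no read depth, so the number of arrays limits the precision. The fit was tested on simulated data.

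The members and the gene lists were chosen with earlier results of these data known. Members were given in full where they had 1 of the 5 smallest p among the called, or 1 of the 2 smallest where none was called; from each list, at most 3 called genes per contrast were eligible by p. Whether each array is its own animal is not in the labels, so the p-values cover only the spread among these arrays, which may be technical. The alternatives were leaving out each array or both acinar-high arrays, only the groups compared, a covariate, a replicate block, other variance, weighting and scaling settings, dim-gene filtering, other cluster choices and stricter thresholds.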

Additional observations from a re-analysis of the deposited data

Results flagged for a closer look

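Cyp4a12a, a male-predominant fatty acid hydroxylase that is not a conjugating enzyme, is given because the effect of FST288 on it differed between the backgrounds. The LTKO effect minus the HFD effect was -1.27 ± 0.17 (log2, SE; limma, adjusted p = 0.0112). FST288 moved it by 0.06 in LTKO livers and by 1.33 in HFD livers, where all 3 FST288 livers (7.58, 7.40 and 7.38) were above all 3 GFP livers (6.29, 6.07 and 6.0). The call of the difference was lost without the acinar-high arrays, with the acinar covariate, without the intensity trend and with all clusters tested. No member met any of the criteria for a closer look.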

How the results depend on the processing

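The number of members called was 3 for FST288 in HFD livers, 0 for FST288 in LTKO livers, 14 each for LTKO against HFD with GFP and with FST288, and 0 for the difference between the FST288 effects. For FST288 in HFD livers it was 0 without both acinar-high arrays, 6 with only the arrays of the groups compared and 1 without the intensity trend, and 2 to 4 when 1 array was left out. For FST288 in LTKO livers it was 1 (Sult1b1) with dim genes filtered out and 0 to 1 when 1 array was left out, where the lone array is assumed to vary like the other groups. For LTKO against HFD with GFP it was 9 with all clusters tested, 9 at an adjusted p under 0.01 and 9 at a 1.5-fold limit, and 11 to 18 when 1 array was left out. For LTKO against HFD with FST288 it was 7 without the acinar-high arrays, 7 with the acinar covariate and 9 with all clusters tested, and 10 to 15 when 1 array was left out. For the difference it was 0 to 4 when 1 array was left out. Where no value above shows the cause of such a change, the cause was not tested. No called member changed sign under any of the 24 settings. Several of them could not change a sign, such as stricter thresholds or leaving out an array of a group not compared. Same-numbered arrays did not deviate together (correlations of -0.07 to 0.03, and 0 of 6 HFD arrays nearest to their own number). This gave no sign of pairing by number, but deviations within groups of 2 or 3 arrays cannot exclude it. With the replicate block the counts were 3, 0, 12, 13 and 0.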
